A study of Mus musculus with 11 samples.

Results

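The IL-17 axis of the gingival epithelium was followed through 7 genes, chosen by name from the deposited table of normalized counts. They are the cytokine gene Il17a, the receptor genes Il17ra and Il17rc, the adaptor gene Traf3ip2, the transcription factor genes Cebpb and Cebpd, and the chemokine gene Ccl20. All 7 were among the 19170 genes with values, of 55414 genes listed, and 5 of them averaged 10 normalized counts or more. Epithelium came from male langerin-DTR mice, in which the receptor for diphtheria toxin (DT) is driven by langerin, so that DT kills langerin-expressing cells, Langerhans cells (LCs) among them. All 11 mice carried this allele. Injections fell on postnatal days 17, 24 and 31, of PBS in 5 mice and of DT in 6 mice, and tissue was taken at 8 weeks of age, when LCs had had time to return. The comparison asks how removal of LCs around weaning left the adult epithelium, and it measures a late state and not the epithelium without LCs.

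IL-17A is a cytokine made mainly by T cells of the type 17 program and by gamma-delta T cells, and it acts on epithelial cells through a receptor that holds the subunits IL-17RA and IL-17RC. The receptor recruits the adaptor Act1, encoded by Traf3ip2, and the signal reaches NF-kB, MAP kinases and the factors C/EBPbeta and C/EBPdelta, and it prolongs the life of some target mRNAs. In barrier epithelia the pathway is known for antimicrobial peptides and for chemokines, such as CCL20, which attracts cells that carry CCR6, and in the gingiva IL-17 is known both for neutrophil defence and for bone loss.

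The reads counted on genes in a mouse numbered from 17667564 to 22180195 in the PBS mice and from 17509328 to 24325513 in the DT mice. All 10 keratinocyte markers examined were measured, with a sum between 2704700 and 3010130 normalized counts per mouse. All 9 LC markers were measured too, with sums between 2897 and 6365 after PBS and between 2224 and 4002 after DT, and none of the 9 passed the test. All 9 had a negative log2 fold change, with a median of -0.34, and 2 of them, Cd74 (-0.50) and Mfge8 (-0.35), had an unadjusted p under 0.05 (11.5% of all genes). Cd207, the gene of langerin, had -0.19 (limma, adjusted p = 0.853), with medians of 18.5 normalized counts after PBS and 18.3 after DT. Most measured markers of T cells (6 of 7), gamma-delta T cells (4 of 4), B cells (5 of 5) and monocytes or macrophages (7 of 10) were negative too. So were most markers of fibroblasts (5 of 7), endothelial cells (4 of 6) and skeletal muscle (4 of 6). Fewer were negative for neutrophils (2 of 5) and keratinocytes (2 of 10), and over all genes 10095 of 19170 were negative. PBS 3 and PBS 5 lay apart from the other PBS mice on the first principal component (scores of 17.2 and 20.9 against -11.9, -12.6 and -13.0), which held 36.0% of the variance of the 500 most variable genes. The DT mice lay between -9.09 and 10.5.

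None of the 7 genes differed between DT and PBS at the threshold used in the study, an adjusted p under 0.1 (limma on log2(normalized count + 1), Benjamini-Hochberg adjustment over 19170 genes). Over all genes 0.558% passed, 0.313% (60 genes) higher after DT and 0.245% (47 genes) lower. At an unadjusted p under 0.05, 1 of the 7 passed, Cebpb, in the higher direction, against 11.5% of all genes (5.31% higher and 6.19% lower). The log2 fold change, DT minus PBS, was positive for 6 of the 7 genes and for 47.3% of all genes, and its median was 0.16 over the 7 and -0.011 over all genes. The groups overlapped for each of the 7 genes, whereas they did not overlap for 2.11% of the 13477 genes that averaged 10 normalized counts or more.

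**Figure D1:**
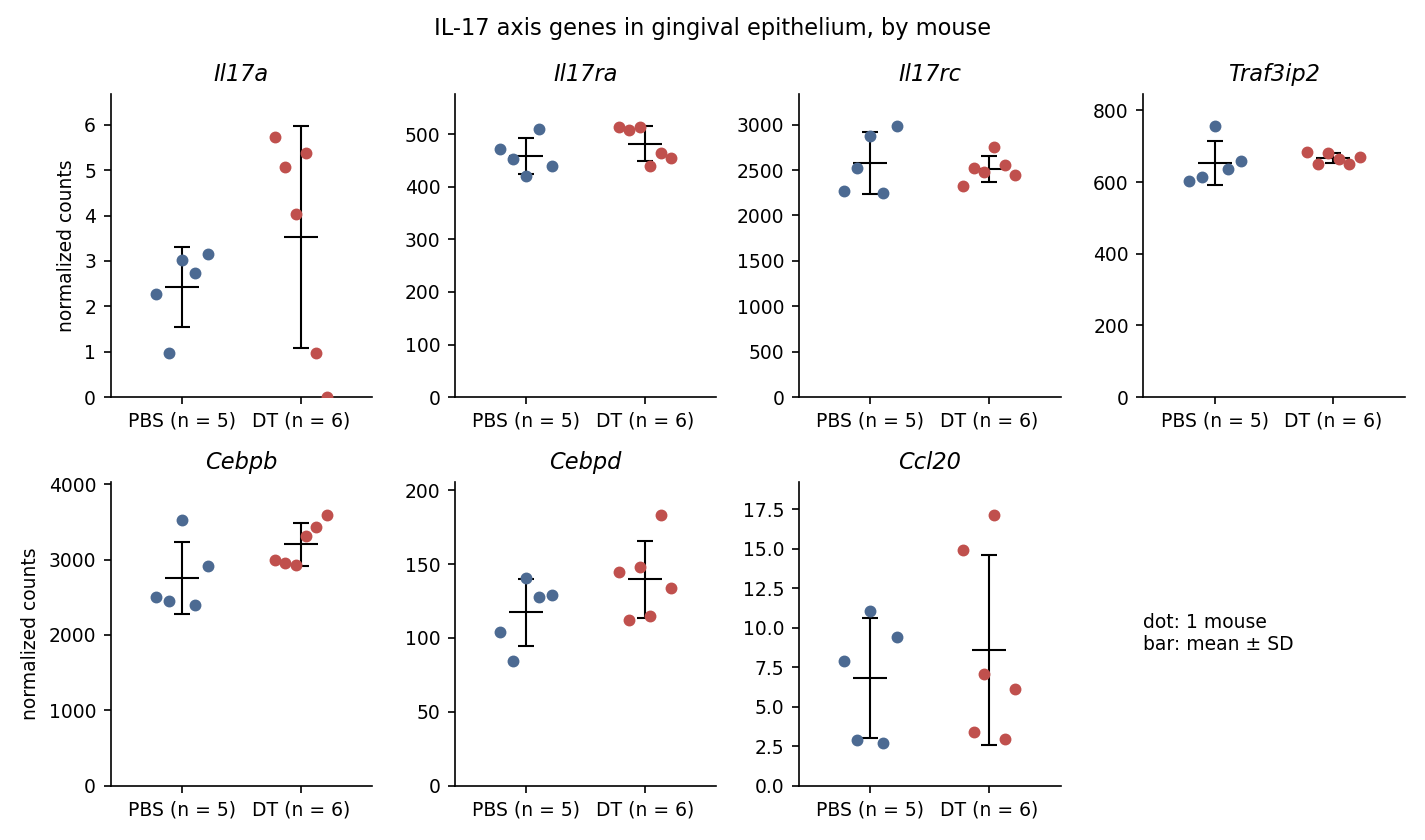
Normalized counts of the 7 genes in each mouse (vertical axis, from 0), with PBS mice (n = 5) and DT mice (n = 6) side by side; dots are mice and bars the mean ± SD. The groups overlap for every gene, and Cebpb shows the 6 DT mice above 4 of the 5 PBS mice.

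Il17a (ENSMUSG00000025929), the ligand, was near the limit of what this depth can measure. It had 2.26, 0.972, 3.02, 2.73 and 3.15 normalized counts in PBS mice 1 to 5. In the DT mice it lay between 0 and 5.73 with a median of 4.55. These values rest on 12 reads summed over the PBS mice and 21 reads summed over the DT mice, so that DT held both the highest values and the only mouse without a read. A count of 0, seen in DT 6, allows up to 3 reads. The log2 fold change was 0.16 (95% interval -0.89 to 1.21, adjusted p = 0.935), and it was -0.026 without PBS 2 and -0.011 without DT 1. The interval is wide, and these values do not tell apart the changes that lie within it. In bulk tissue, fewer cells of a type and less RNA per cell cannot be told apart. Of 11 T cell markers 7 had values, with sums between 28.2 and 90.5 normalized counts after PBS and between 26.5 and 50.5 after DT, and Trac, Trbc1 and Trbc2, which encode constant chains of the T cell receptor, were listed without a value. The part of T cell content in the level of Il17a was not tested.

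Il17ra (ENSMUSG00000002897) encodes the subunit that the receptors of several IL-17 cytokines share. Its level was 472, 453, 421, 511 and 440 normalized counts in PBS mice 1 to 5, and between 439 and 514 with a median of 486 in the DT mice. The ranges nearly coincided. DT minus PBS, the log2 fold change was 0.07 (standard error 0.067, 95% interval -0.07 to 0.21, adjusted p = 0.738), which bounds the change of the mean between 0.952-fold and 1.16-fold.

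Il17rc (ENSMUSG00000030281) encodes the partner subunit for IL-17A and IL-17F. It had 2274, 2520, 2880, 2243 and 2984 normalized counts in PBS mice 1 to 5, and between 2325 and 2749 with a median of 2501 in the DT mice. All 6 DT mice lay inside the range of the PBS mice, whose highest values were those of PBS 5 and PBS 3. Its coefficient of variation was 13.2% after PBS and 5.61% after DT, and the difference in spread was not tested. The log2 fold change was -0.03 (standard error 0.074, 95% interval -0.19 to 0.13, adjusted p = 0.914), and it turned to 0.011 without PBS 3 and to 0.024 without PBS 5, without passing the test.

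Traf3ip2 (ENSMUSG00000019842), the gene of Act1, had 602, 614, 756, 636 and 660 normalized counts in PBS mice 1 to 5. The DT mice lay between 651 and 683 with a median of 668. Their coefficient of variation was 2.13%, the lowest of any group here, against 9.41% in the PBS mice, where PBS 3 was highest. The counting of reads alone gives 3.87% for Traf3ip2, and the spread of the DT mice lay below that. Nothing is therefore read from the likeness of the DT mice, and again the difference in spread was not tested. On the log2 scale the fold change was 0.03 (standard error 0.060, 95% interval -0.09 to 0.16, adjusted p = 0.875).

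Cebpb (ENSMUSG00000056501) encodes C/EBPbeta, a basic leucine zipper factor of IL-17 responses that also serves keratinocyte differentiation. It was the 1 gene of the 7 with an interval that did not reach 0, and it did not pass the threshold. Its level was 2501, 2446, 3524, 2401 and 2912 normalized counts in PBS mice 1 to 5. In the DT mice it lay between 2925 and 3597 with a median of 3151. All 6 DT mice were above 4 of the 5 PBS mice, and PBS 3 was higher than 5 of the 6 DT mice. The mean was 2757 ± 475 (SD, n = 5 PBS mice), and 3200 ± 284 (SD, n = 6 DT mice). The log2 fold change was 0.23 (standard error 0.092, 95% interval 0.03 to 0.42, limma unadjusted p = 0.0255, adjusted p = 0.352). Without PBS 3 the log2 fold change was 0.32 and the adjusted p 0.0948, so the call turned on that mouse. Leaving out each mouse in turn gave a limma adjusted p of up to 0.573 for Cebpb. Without both PBS 3 and PBS 5, an exclusion added after seeing the data, it was 0.38 (adjusted p = 0.0073). Those mice had been picked from their expression and held the highest PBS values of Cebpb, which raises the difference by construction, and nothing is read from it.

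A list of 12 immediate early response genes moved with the group. Of the 12, 10 passed the test, all higher after DT, against 0.313% of all genes. The list was chosen with earlier results of these data known, so this count is a description only. The summed level of the 12 ranged from 26255 to 67220 normalized counts in the PBS mice and from 71071 to 113136 in the DT mice. These genes are induced within minutes by many stimuli and their part in the level of Cebpb was not tested.

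Cebpd (ENSMUSG00000071637) encodes C/EBPdelta, a relative that binds the same DNA element. Its level was 104, 84.5, 141, 127 and 129 normalized counts in PBS mice 1 to 5, and between 112 and 183 with a median of 139 in the DT mice. 3 DT mice lay above every PBS mouse and the other DT mice lay within the PBS range. Its log2 fold change was 0.25 (standard error 0.15, 95% interval -0.06 to 0.57, adjusted p = 0.536), and it was 0.14 without PBS 2.

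Ccl20 (ENSMUSG00000026166), the response gene, had 7.92, 2.92, 11.1, 2.73 and 9.44 normalized counts in PBS mice 1 to 5. It lay between 2.94 and 17.2 with a median of 6.59 in the DT mice. Both groups held mice near 3 normalized counts, and the 2 highest mice were DT 4 and DT 1. The reads summed to 33 after PBS and 50 after DT. For Ccl20 the log2 fold change was 0.22 (standard error 0.46, 95% interval -0.75 to 1.195, adjusted p = 0.898), and it was -0.0046 without PBS 4 and -0.012 without DT 4. Ccr6, the gene of the CCL20 receptor, was named after its values were seen, and had 29 reads over the PBS mice and 13 over the DT mice, with a log2 fold change of -1.27 (standard error 0.45, adjusted p = 0.283).

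**Figure D2:**
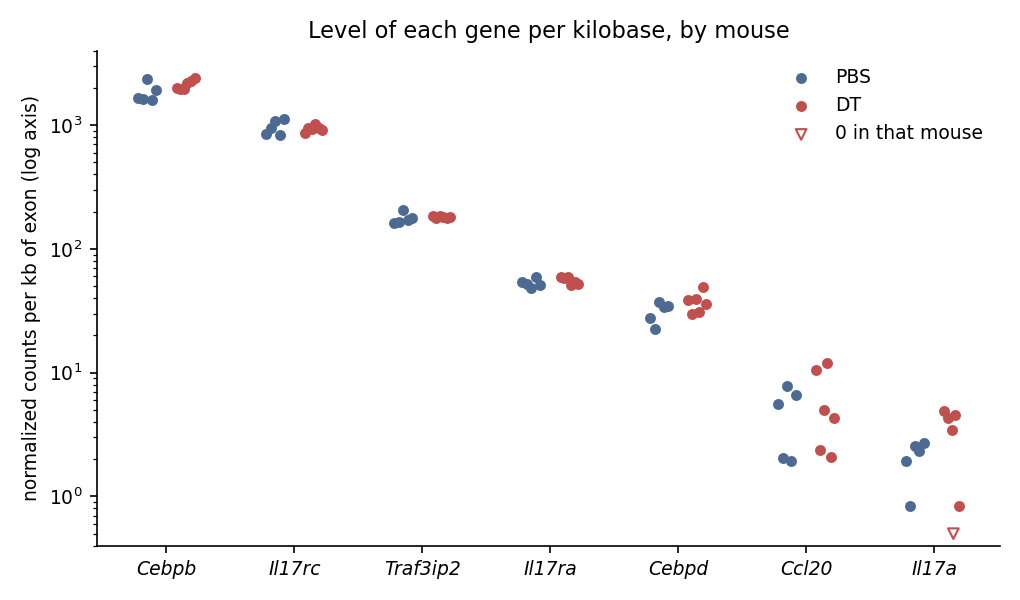
Normalized counts per kilobase of merged exon (vertical axis, log scale) for each gene, ordered by mean, with 1 dot per mouse; the open triangle marks the mouse with 0 for Il17a. Cebpb and Il17rc sit at the top, and Ccl20 and Il17a at the bottom.

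Levels of different genes were compared per kilobase of merged exon, as means over the 11 mice. Cebpb was highest with 1994 normalized counts per kilobase, followed by Il17rc with 952, Traf3ip2 with 179, Il17ra with 54.5, Cebpd with 34.5, Ccl20 with 5.48 and Il17a with 2.59. The ranges of neighbours in this order overlapped only for Il17ra with Cebpd and for Ccl20 with Il17a, and the order was the same with the length of the principal transcript of each gene, a choice added after seeing the data. With that length Ccl20 had 9.81 normalized counts per kilobase, and the ranges of Il17ra (54.4 to 66.3) and Cebpd (22.6 to 49.0) no longer overlapped. Per kilobase, the epithelium thus held more mRNA of the receptor subunit Il17rc than of its partner Il17ra. Division by length holds only where reads spread over whole transcripts, which the descriptions of the libraries leave unsettled. Without that division the means were 2543 normalized counts for Il17rc and 472 for Il17ra. The per-kilobase ratio of Il17rc to Il17ra within a mouse was between 14.2 and 22.2 after PBS and between 14.7 and 20.3 after DT. The ratio of Cebpb to Cebpd was between 46.9 and 72.1 after PBS and between 46.5 and 71.8 after DT. These ratios, and those given for Cebpa and Ddit3, were chosen after the values were seen.

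The promoters of Ccl20 and Cebpb are shown because these genes stand for the response and for its transcription factor. Each is the 250 bases before the gene start in RefSeq (GRCm38.p6, plus strand), printed 5′ to 3′, with the letters in capitals that matched a motif searched.
Ccl20, chr1:83116516-83116765: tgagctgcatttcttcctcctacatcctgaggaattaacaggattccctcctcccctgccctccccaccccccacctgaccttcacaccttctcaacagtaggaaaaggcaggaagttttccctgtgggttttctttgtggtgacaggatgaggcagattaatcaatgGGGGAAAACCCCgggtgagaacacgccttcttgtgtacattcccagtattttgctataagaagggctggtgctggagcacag
Cebpb, chr2:167688665-167688914: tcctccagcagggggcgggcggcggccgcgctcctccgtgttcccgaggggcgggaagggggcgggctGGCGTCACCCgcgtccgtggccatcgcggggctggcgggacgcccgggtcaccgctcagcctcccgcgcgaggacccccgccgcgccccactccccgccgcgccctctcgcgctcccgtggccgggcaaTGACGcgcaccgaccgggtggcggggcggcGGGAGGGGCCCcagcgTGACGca
Of the 7 genes, 4 had an entry, Il17a and Il17rc being the others. The capitals mark the NF-kB letters, GGG and CC with 5 bases of any kind between them, on either strand in both promoters, and in Cebpb also TGACG, the core letters of a cyclic AMP response element, on either strand. In Ccl20 the NF-kB letters matched at 4 overlapping places, from base -82 to base -71 before the start. In Cebpb they matched at -182, -23 and -22, the last 2 overlapping, and TGACG matched at -180, inside the first of these, and at -53 and -7. The C/EBP letters TTGCNNAA, on either strand, matched in none of the 4 promoters. The AP-1 letters TGANTCA, on either strand, and the TATA box letters TATAAA, on the given strand, were searched too. They matched in neither promoter printed, and each matched at 1 place in that of Il17a. Of 32851 promoters of this length, 45.8% held the NF-kB letters, 17.8% held TGACG and 9.56% held the C/EBP letters. The AP-1 letters were in 6.75% and TATAAA in 7.59%. The motifs were chosen after these sequences had been read, and the matches are a description of the letters only.

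The genes around the 7 were taken from lists of the pathway, and in the 7 lists no gene passed the threshold, against 0.558% of all genes. Their counts at a limma unadjusted p under 0.05 stand beside 11.5% of all genes (5.31% higher and 6.19% lower). Of the other ligands, 4 of 5 had values and 0 passed at an unadjusted p under 0.05. Il17d had between 5 and 14 reads in each mouse, with a log2 fold change of -0.20 (adjusted p = 0.841). Il17f, the ligand closest to Il17a, was named after its values were seen and had 8 reads over the PBS mice and 3 over the DT mice. Of the 3 other receptor subunits, 1 passed at an unadjusted p under 0.05, in the lower direction. This was Il17re, the subunit that binds IL-17C, with 363 ± 18.5 (SD, n = 5 PBS mice) and 323 ± 21.3 (SD, n = 6 DT mice) normalized counts and a log2 fold change of -0.17 (adjusted p = 0.330). Il17rb, a subunit for IL-25, had a log2 fold change of -0.15 (adjusted p = 0.860).

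Downstream of Act1, 1 of 16 genes had an unadjusted p under 0.05 in each direction, near the shares over all genes (5.31% higher and 6.19% lower). Elavl1, whose protein HuR stabilizes mRNAs, had a log2 fold change of 0.16 (adjusted p = 0.315), and Traf3, an inhibitor of the receptor, -0.15 (adjusted p = 0.408). The feedback regulators held the smallest adjusted p of the pathway lists. Nfkbia, the gene of the NF-kB inhibitor IkBalpha, had 1937, 1698, 2431, 2228 and 2065 normalized counts in PBS mice 1 to 5 and between 2262 and 3191 in the DT mice. The highest PBS mouse, PBS 3, lay within the DT range. For Nfkbia the log2 fold change was 0.35 (standard error 0.092, adjusted p = 0.164). Nfkbiz, the gene of the NF-kB cofactor IkBzeta, had the same value of 0.35 (standard error 0.13, adjusted p = 0.290). Without the highest PBS mouse the limma adjusted p was 0.0841 for Nfkbia (PBS 3) and 0.0801 for Nfkbiz (PBS 4). Dropping that mouse raises the difference by construction. Leaving out each mouse in turn, the limma adjusted p reached 0.362 for Nfkbia and 0.489 for Nfkbiz. Of the 5 feedback regulators these 2 had an unadjusted p under 0.05, against 11.5% of all genes.

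Of the other C/EBP genes, 3 of 4 had values and 1 had an unadjusted p under 0.05, against 11.5% of all genes. Ddit3, which encodes CHOP, a C/EBP protein of stress responses that inhibits its partners, had 124, 117, 115, 128 and 81.8 normalized counts in PBS mice 1 to 5 and between 70.6 and 103 in the DT mice. PBS 5 alone lay within the DT range. For Ddit3 the log2 fold change was -0.47 (standard error 0.13, adjusted p = 0.196). Without PBS 5, the lowest PBS mouse, it was -0.58 (limma, adjusted p = 0.0449), an exclusion that enlarges the difference by construction. Leaving out each mouse in turn gave a limma adjusted p of up to 0.408 for Ddit3. Per kilobase, the ratio of Cebpb to Ddit3 was between 21.3 and 40.5 after PBS and between 36.6 and 55.3 after DT. Cebpg, a family member without a strong activation domain, had a log2 fold change of 0.015 (adjusted p = 0.953). Cebpa, a factor of epidermal differentiation named after its values were seen, had a log2 fold change of 0.0038 (adjusted p = 0.992), and its highest PBS mice were PBS 3 and PBS 5. The ratio of Cebpb to Cebpa per kilobase was between 1.70 and 1.95 after PBS and between 1.90 and 2.42 after DT.

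Of 26 IL-17 response genes of epithelia, 24 had values, 14 had a positive and 10 a negative log2 fold change, and the median was 0.15. Of them 2 had an unadjusted p under 0.05, both in the higher direction, against 11.5% of all genes (5.31% higher), and none passed the threshold. Defb14, an antimicrobial beta-defensin, had a log2 fold change of 0.35 (standard error 0.12, adjusted p = 0.258). S100a7a, a member of the psoriasin group of antimicrobial S100 genes, had a log2 fold change of 0.25 (standard error 0.085, adjusted p = 0.263). Without PBS 5, the highest PBS mouse, it was 0.35 (limma, adjusted p = 0.0144), an exclusion that raises the difference by construction. Leaving out each mouse in turn gave a limma adjusted p of up to 0.452 for S100a7a. S100a8 and S100a9, whose proteins form calprotectin, are also neutrophil markers, and their log2 fold changes were 0.60 and 0.61 (adjusted p = 0.660 and 0.619). The 5 neutrophil markers with values, these 2 included, summed to between 1720 and 5517 normalized counts in PBS mice. In DT mice the sum was between 949 and 5722. Of the others, Ltf had a log2 fold change of -0.42 and Cxcr2 of -0.28. Ngp went the other way with 0.89, on 2 reads over the PBS mice and 11 over the DT mice. Ly6g, Mpo, Elane, Camp and Retnlg were listed without a value. Of the 11 genes of type 17 induction and the Ccl20 receptor, 9 had values, 5 with a positive and 4 with a negative log2 fold change. At a limma unadjusted p under 0.05, 1 passed, in the lower direction, against 11.5% of all genes (6.19% lower). This was Ccr6, with the few reads given above. Il1r1, which encodes the receptor of IL-1, had a log2 fold change of 0.17 (adjusted p = 0.643).

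**Figure D3:**
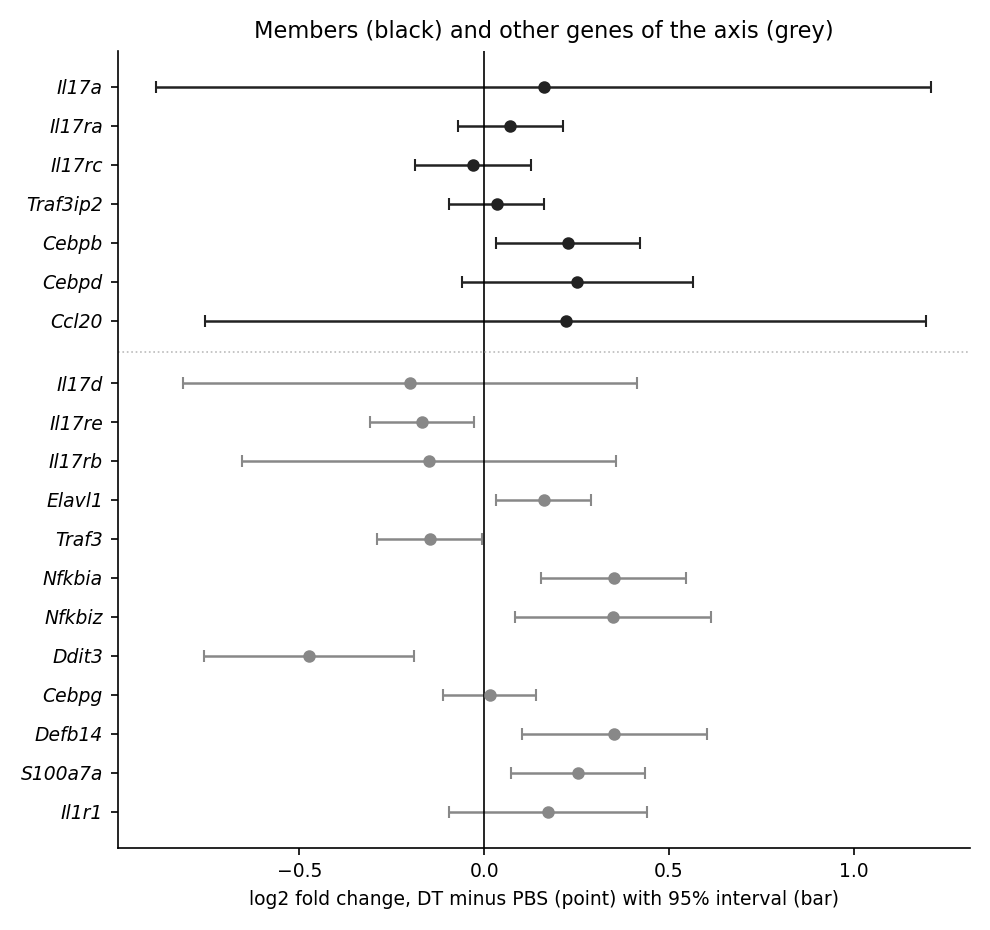
Log2 fold change, DT minus PBS (horizontal axis), with its 95% interval for the 7 genes (black) and for the other pathway genes named by rule and reported here (grey). Of the 7, Cebpb has the only interval that does not reach 0, and Il17a and Ccl20 have the widest.

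To see how the members varied from mouse to mouse, each value was taken as its deviation from the group mean on the log2 scale, and the 5 genes that averaged 10 normalized counts or more gave 10 pairs. After adjustment over the 10 pairs, 2 pairs passed by Pearson's r at an adjusted p under 0.05 (permutation test, 100000 permutations of mice within groups), and both held Il17ra. Il17ra and Cebpb varied in opposite directions (r = -0.81, permutation p = 0.0049, adjusted p = 0.0316; rho = -0.75, permutation p = 0.00638, adjusted p = 0.0638). Without the 2 mice farthest from the median of Il17ra, r was -0.88 (permutation test, adjusted p = 0.0378). Il17ra and Il17rc also varied in opposite directions (r = -0.75, permutation p = 0.00633, adjusted p = 0.0316; rho = -0.66, permutation p = 0.0299, adjusted p = 0.1496). Without the same 2 mice that r was -0.56 (permutation test, adjusted p = 0.413). Dropping the mice at the ends of Il17ra narrows its range and leaves fewer mice, so nothing is read from either drop. With TMM scaling neither pair passed, with r of -0.76 and -0.69 (permutation test, adjusted p = 0.0782 for each). By rho neither pair passed after adjustment.

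**Figure D4:**
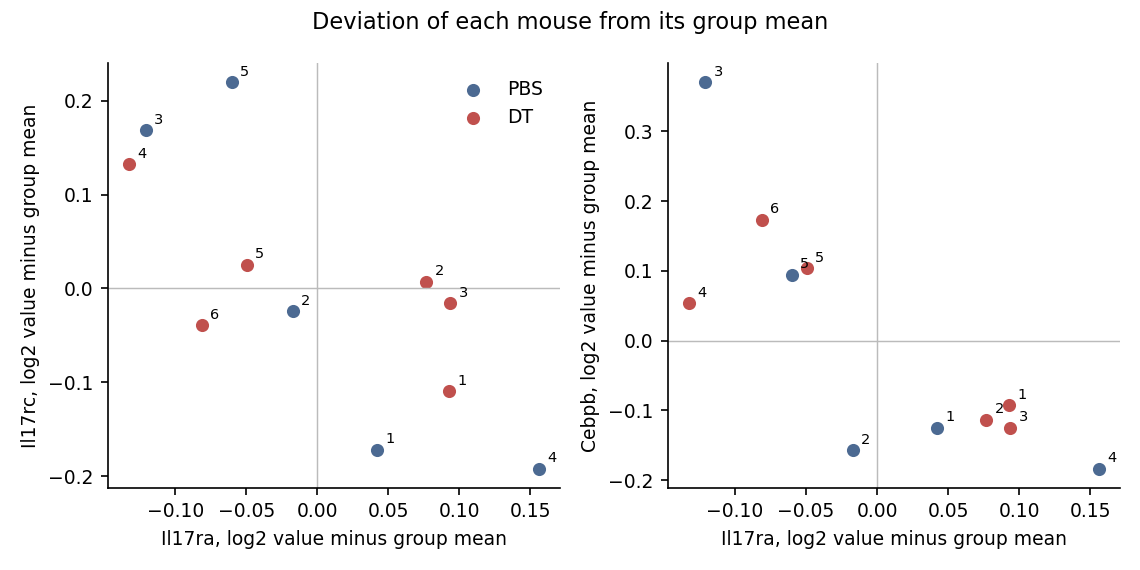
Deviation of each mouse from its group mean on the log2 scale, Il17rc (left) and Cebpb (right) on the vertical axis against Il17ra on the horizontal axis, with the mouse number beside each dot. High Il17ra goes with low Il17rc (r = -0.75) and low Cebpb (r = -0.81), and the axis spans are small.

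These relations share their libraries with those of many other genes. Of 10709 genes that averaged 50 normalized counts or more, 1611 (15.04%) had an r of at least 0.8 in size with Il17rc within the groups, against 411 (3.84%) with Cebpb, 302 (2.82%) with Il17ra, 170 with Traf3ip2 and 53 with Cebpd, a count chosen after the values were seen. The genes whose pattern over the 11 mice was most like that of each member are given as a description. For Il17rc these were Tmem254 (r = 0.98), Tyro3 and Elovl1 (r = 0.97 each), and for Cebpb they were Ubb, Acadl (r = 0.97 each) and Rhoa (r = 0.93). For Il17ra they were Pdcd11 (r = 0.89), Rnf169 and Ppfia1 (r = 0.88 each). For Traf3ip2 they were Ubl7, Psmd11 (r = 0.92 each) and Arpin (r = 0.90), and for Cebpd they were Zfyve9 (r = 0.93), Ash2l (r = 0.90) and Thoc5 (r = 0.87).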

How the data were processed

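Gingival epithelium of 11 langerin-DTR mice was profiled by RNA sequencing, described as stranded and poly(A)-selected. The study's methods, however, follow the QuantSeq guide for read processing, so the library type is unsettled. Per the labels, the authors trimmed reads with cutadapt 2.10, aligned them with TopHat2 2.1.1, counted them per gene with HTSeq 2.01 and scaled each mouse by its DESeq2 1.36.0 size factor. The study's methods give other versions of these tools, except the aligner, and add that genes whose counts summed to under 10 were dropped. The deposited values are these normalized counts, treated here as a score and not as raw counts. The labels name GRCm39 and the methods another build, so no gene positions in the files' build are printed. Every value was a whole multiple of 1 read (tolerance 0.05 reads), and reads were recovered to describe depth only. Count tests on these reads would be possible but were not run, because the table has cells without a value and 2 columns (PBS 3 and DT 3) where 1 read is worth close to 1 normalized count, and so did not meet the rule used for treating values as reads.

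DT and PBS were compared with limma 3.58.1 in R 4.3.3 on log2(normalized count + 1) with an intensity trend, no covariate, two-sided, adjusted by Benjamini-Hochberg over 19170 genes, at a threshold of 0.1. This scale understates changes of low genes. Confidence intervals are at 95%, and the p-values measure the spread between mice. The members and lists were chosen with earlier results of these data known. Named genes are the 7 members, the 2 genes with the smallest p and a mean of at least 10 in each of the 7 pathway lists, the 3 genes most like each member, and those said in the text to be chosen after their values were seen. Of the genes so chosen, 1 is not reported here and was not replaced. Exon lengths came from GENCODE mouse release M21, which matched 99.7% of genes with values. The procedure was run on simulated data, with changes larger than those of the members, in genes with more reads than Il17a and Ccl20. That run does not speak to changes as small as that of Cebpb, or to genes with few reads. The replicate numbers of PBS and DT mice were checked and gave no clear sign that they pair the mice. Alternatives were other pseudocounts, a mean filter, TMM scaling, quantile normalization, array weights, a replicate block and leaving out mice. The labels name no batch.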

Additional observations from a re-analysis of the deposited data

How the results depend on the processing

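The log2 fold changes of Il17ra, Traf3ip2, Cebpd and Cebpb kept their sign under all alternatives run, and the members did not pass the threshold in any of them except Cebpb without PBS 3 (0.32, adjusted p = 0.0948) and Cebpb without PBS 3 and PBS 5 together. That last exclusion was added after seeing the data, and those mice were chosen from their expression. They hold the highest PBS values of Cebpb, so it raises the Cebpb difference by construction, and nothing rests on it: Cebpb was 0.38 (adjusted p = 0.0073), Il17rc turned to 0.10 and the number of genes past the threshold was 1967, with Nfkbia, Ddit3, Defb14, S100a7a and Cebpa among them. Leaving out each mouse in turn gave 27 to 259 genes against 107 (29, 40, 170 and 259 without PBS 1, 2, 4 and 5, and 61, 52, 50, 27 and 30 without DT 1, 3, 4, 5 and 6), -0.026 to 0.54 for Il17a, -0.079 to 0.024 for Il17rc, 0.18 to 0.32 for Cebpb, 0.14 to 0.32 for Cebpd, -0.012 to 0.43 for Ccl20, -0.33 to -0.041 for Il17d, 0.059 to 0.27 for Il1r1, -0.29 to 0.0086 for Il17rb, -0.017 to 0.048 for Cebpg and -0.062 to 0.094 for Cebpa. Array weights gave 189 genes, Nfkbia, Ddit3 and S100a7a among them, and turned Il17rc to 0.0042. With the length of the principal transcript, added after seeing the data, the levels per kilobase were 60.9 for Il17ra, 1105 for Il17rc, 231 for Traf3ip2 and 9.81 for Ccl20. Quantile normalization turned Cebpa to -0.017. The cause was not tested for these changes.

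Same-numbered mice did not consistently deviate together (correlations of 0.088, 0.17, -0.23, -0.21 and 0.32 for numbers 1 to 5 of the titles). These values gave no clear sign of pairing but cannot exclude a shared origin of such mice. With the replicate block, 35 genes passed by the numbers of the titles and 0 by library number (limma, 1404 at an unadjusted p under 0.05), and the DT mouse without a partner (DT 6 and DT 5) adds nothing to such a fit. Cebpg turned to -0.0020 by the titles and to -0.0043 by library number, and Cebpa to -0.013 by library number. The block changed no call of a member.

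For the pairs, TMM scaling gave r of -0.69 (Il17ra with Il17rc), -0.76 (Il17ra with Cebpb) and 0.029 (Il17ra with Cebpd). Without centring r was -0.43 (Il17ra with Cebpb), 0.13 (Il17ra with Cebpd) and 0.71 (Traf3ip2 with Cebpb, permutation test, adjusted p = 0.0495). Without the 2 mice farthest from the median, r was -0.56 (Il17ra with Il17rc), -0.41 (Il17rc with Traf3ip2) and -0.53 (Il17rc with Cebpd). The planned edgeR and DESeq2 alternatives on recovered reads were not run. The filter on a mean of at least 10 leaves out Il17a and Ccl20, whose few reads limit what depth can show.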
